A study of Mus musculus with 4 samples.

Results

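OPCL61 and NSCL61 are a pair of mouse glioma-initiating cell lines, that is, cells able to start a glioma. NSCL61 was derived from neural stem cells, the multipotent progenitors of the neurons and glia of the brain, and OPCL61 from oligodendrocyte precursor cells, which normally mature into myelinating oligodendrocytes. The comparison takes 2 of the 4 arrays of the series, 1 for each line, and covers every mouse miRNA on the array, 1023 miRNAs read by 2645 probes. It asks how the miRNA content of the lines differs when both are glioma-initiating and the cell of origin is not the same. The labels used here give no genotype, oncogene, allele, passage or treatment for either line, and nothing in them says that a line was cultured or extracted more than once. Total RNA went onto the arrays with 1 dye, 100 ng for each array. Between 10 and 40 replicate spots per probe measured technical error within an array. With 1 sample per line no test between the lines was possible, and every difference below is a description of these 2 arrays. Every difference is given as OPCL61 minus NSCL61 on the log2 scale.

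A miRNA is an RNA of about the length of a PCR primer that guides Argonaute proteins to messenger RNAs. The bases at positions 2 to 8, the seed, decide most of the pairing, so that miRNAs with the same seed share many targets, and one precursor hairpin can give a 5p and a 3p arm with different seeds. Many miRNA genes lie in clusters that are transcribed as one RNA. In the neural lineages miR-9 marks stem and progenitor cells, miR-219 and miR-338 drive oligodendrocyte differentiation, and let-7 rises with maturation, while miR-21 is a classic abundant miRNA of glioma.

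The sequences of the miRNAs that differed most are shown first, since base composition and shared seeds recur in the results. RefSeq sequences (GRCm38.p6) matched 195 of the 256 miRNAs measured in at least 1 line. Each is a mature RNA, 5′ to 3′, with the seed in capitals. The first set holds miRNAs with some of the largest differences towards OPCL61. They lie at chr17:35917938-35917959 on the plus strand within Ppp1r10 (miR-1894-3p), chr11:79726428-79726450, plus (miR-365-2-5p), chrX:142739020-142739043, plus, within Tmem164 (miR-652-5p), chr6:125195807-125195828, plus (miR-3098-5p), chr5:24592132-24592154, plus, within Chpf2 (miR-671-5p), chrX:72992113-72992133, plus, within Zfp185 (miR-2137), chr7:45121798-45121819, plus (miR-150-3p), and chr12:109712823-109712843, plus (miR-758-5p).
miR-1894-3p: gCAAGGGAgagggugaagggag
miR-365-2-5p: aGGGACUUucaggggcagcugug
miR-652-5p: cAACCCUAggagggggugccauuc
miR-3098-5p: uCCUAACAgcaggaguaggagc
miR-671-5p: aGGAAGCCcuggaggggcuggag
miR-2137: gCCGGCGGgagccccagggag
miR-150-3p: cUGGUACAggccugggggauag
miR-758-5p: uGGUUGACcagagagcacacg

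The next set holds miRNAs with lower signal in OPCL61. The miR-29 members share 1 seed and come from chr6:31062673-31062694, minus (miR-29a-3p), chr6:31063025-31063047, minus, and chr1:195037091-195037113, plus (miR-29b-3p), and chr1:195037600-195037621, plus (miR-29c-3p), the latter pair within the lncRNA A330023F24Rik. miR-96-5p (chr6:30169506-30169528), miR-182-5p (chr6:30165962-30165986) and miR-183-5p (chr6:30169711-30169732), all on the minus strand, form 1 cluster. miR-31-5p (chr4:88910614-88910635) and miR-31-3p (chr4:88910577-88910599) are the arms of 1 hairpin on the minus strand. miR-199a-3p is encoded at chr1:162217883-162217904, plus, within Dnm3 and its antisense lncRNA Dnm3os, and at chr9:21496498-21496519, minus, within Dnm2.
miR-29a-3p: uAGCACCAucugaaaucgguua
miR-29b-3p: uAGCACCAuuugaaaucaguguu
miR-29c-3p: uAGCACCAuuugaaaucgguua
miR-96-5p: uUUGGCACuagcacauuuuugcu
miR-182-5p: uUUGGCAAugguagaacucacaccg
miR-183-5p: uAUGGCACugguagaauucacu
miR-31-5p: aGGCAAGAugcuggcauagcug
miR-31-3p: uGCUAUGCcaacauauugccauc
miR-199a-3p: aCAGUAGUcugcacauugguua

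Among miRNAs measured in both lines, the highest 2 differences belonged to miRNAs with no RefSeq match by name, so their probes are shown as the array design gives them (mm9). The probe of miR-3106-5p maps to chr8:16168774-16168790 and targets the minus strand, and that of miR-1940 maps to chr13:96100566-96100580 and targets the plus strand. All letters are lower case because no seed is marked.
miR-3106-5p probe: tggctgcttctaaatga
miR-1940 probe: aactgctccaccttct

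A miRNA counted as measured in a line when at least 50% of the spots of one of its probes were well above background by the scanner software's own call. By this rule 228 miRNAs were measured in NSCL61 and 206 in OPCL61. Both lines had 178 of them, 50 were measured in NSCL61 alone, 28 in OPCL61 alone, and 767 of the 1023 were in neither. NSCL61 was the brighter array: the summed signal of its measured miRNAs was 251354 units, 2.64 times the 95121 units of OPCL61. Negative control spots were well above background in 5 of 1000 cases in NSCL61 and 4 of 1000 in OPCL61, and no mouse spot was saturated. The median SD over spots was 0.09 in NSCL61 and 0.13 in OPCL61 on the log2 scale. Both arrays sat on 1 slide and came from 1 scan. The software's spike-in metrics were out of range on both arrays, and what set the gap in signal was not tested.

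Because of this gap the arrays were scaled, and the scaling sets the balance of directions. The main scaling aligned the 75th percentiles of 182 probes that were well above background on all 4 arrays of the series, and it raised OPCL61 by 1.06 relative to NSCL61. After it, 89 miRNAs were at least 2-fold higher in OPCL61 (34.8% of the 256 measured) and 31 were at least 2-fold lower (12.1%), with 136 in between or without a bound of that size. On the signals as deposited, 40 were higher (15.6%) and 101 lower (39.5%). The share of calls that were higher in OPCL61 was 74.2% with the main scaling, 28.4% without scaling, 23.5% with the 75th percentile of all probes, 63.1% with that of the probes measured in both lines, 42.3% with the median and 46.2% with quantile normalization. The median difference over the 178 miRNAs measured in both lines was 0.38 scaled and −0.68 unscaled, and 118 of the 178 had the higher unscaled signal in NSCL61. The main shift favoured OPCL61 more than the other shifts did, so a call of lower in OPCL61 was harder to lose under them than a call of higher. All 31 lower calls and 30 of the 89 higher calls stood under each of the 5 other scalings. Those 30 all differed by at least 4.38-fold. An unscaled difference is the scaled one minus 1.06, and miRNAs between 2-fold and about 4-fold higher are to be read with that in mind.

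**Figure D1:**
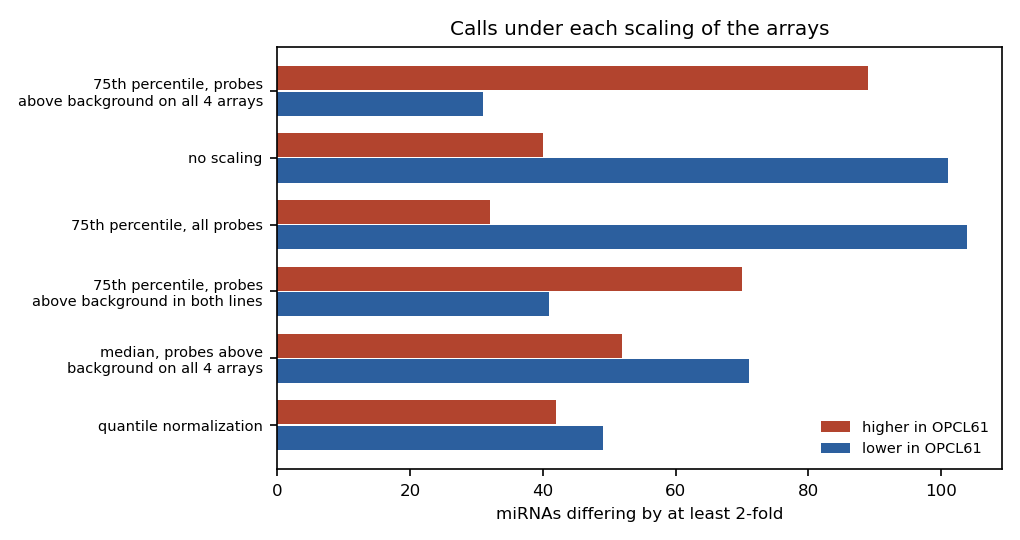
Number of miRNAs at least 2-fold higher (red bars) or lower (blue bars) in OPCL61 than in NSCL61 under 6 scalings of the arrays, 1 array per line. Higher calls ran from 32 to 89 and lower calls from 31 to 104, so the majority changed side with the scaling.

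Levels in the lines followed each other loosely. Over the 178 miRNAs measured in both, Pearson's r of the log2 levels was 0.78 and Spearman's rho 0.72, a description over miRNAs that share the 2 arrays and their probes. Scaled differences ran from −1.26 at the 10th percentile to 2.19 at the 90th, and 92 of the 178 lay within 2-fold. The median spot standard error of a difference was 0.035 and the highest 0.14, and it holds no spread between cultures.

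**Figure D2:**
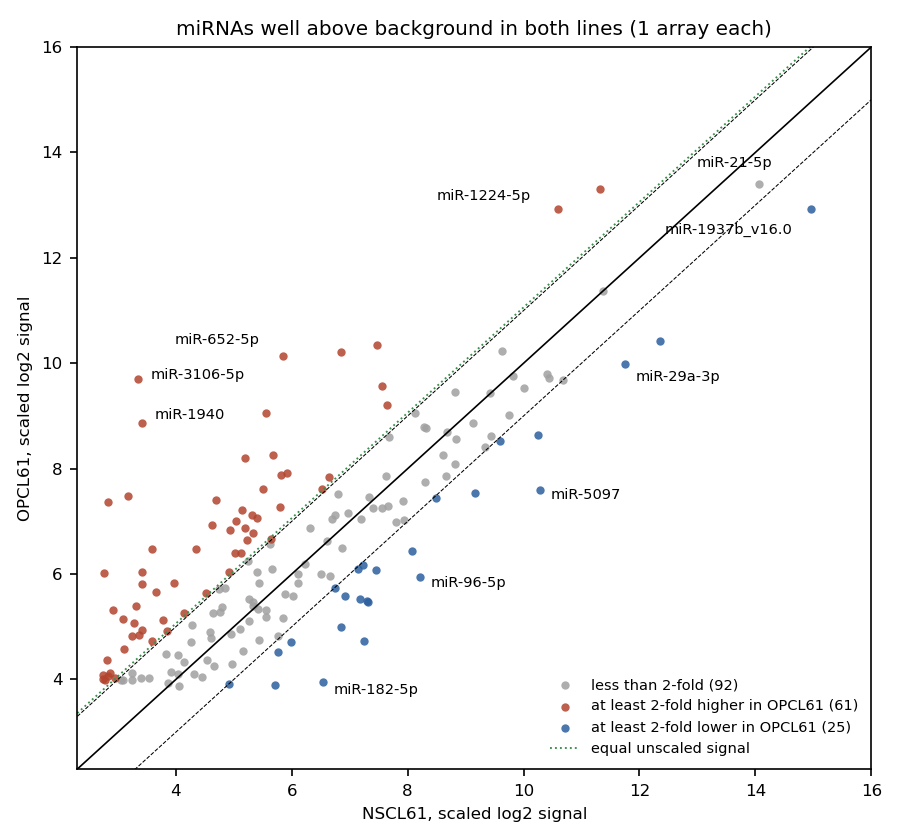
Scaled log2 signal of the 178 miRNAs measured in both lines, NSCL61 on the horizontal and OPCL61 on the vertical axis (1 point per miRNA). The solid line marks equality, dashed lines 2-fold, and the green dotted line equal unscaled signal. Red points (61) lie above the upper dashed line, mostly at low NSCL61 signal, and blue points (25) below the lower one.

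The largest difference towards OPCL61 was that of miR-3106-5p. It gave 27.6 units in NSCL61 and 1080.3 in OPCL61, a scaled difference of 6.36 ± 0.021 (spot SE here and below), or 81.9-fold. Its 2 probes gave 6.33 and 6.36. miR-1940 gave 29.5 and 603 units, 43.3-fold (5.44 ± 0.063). Both are sparsely studied mouse miRNAs, and both differences exceeded in size every downward difference between miRNAs measured in both lines. miR-1894-3p followed with 18.9 and 217 units (4.55 ± 0.048, 23.4-fold), where the second probe gave 2.90. miR-365-2-5p, the minor arm of a miR-365 hairpin, gave 24.6 and 236 units (4.31 ± 0.061, 19.8-fold). The other arm product, miR-365-3p, did not share this: it had 128 and 52.0 units, a difference of −0.25.

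miR-652-5p was the clearest case of arms that parted. The 5p arm had 157 units in NSCL61 and 1461 in OPCL61 (4.28 ± 0.014, 19.4-fold), whereas the 3p arm had 247 and 83.8 units (−0.50 ± 0.027). The arms thus differed by 4.78, but the probes of the 5p arm did not give 1 value: the second gave 1.01, which is −0.053 without the scaling shift. The direction of the 5p arm on unscaled signal therefore rested on its brighter probe.

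Among the better-known miRNAs on this side, miR-671-5p, which cleaves the circular RNA Cdr1as in brain, had 99.1 units in NSCL61 and 382 in OPCL61 (3.01 ± 0.036, 8.05-fold). Its 4 probes lay between 3.01 and 3.63. miR-378-3p, encoded in an intron of the metabolic coactivator gene Ppargc1b, had 17.5 and 84.3 units (9.47-fold, 3.24 ± 0.044). miR-483-5p, from an intron of Igf2, had 29.2 and 86.1 units (6.16-fold, 2.62 ± 0.065). All 3 stood under every scaling tried. The remaining names among the 15 largest were miR-3098-5p (11.4-fold), miR-3096-5p (10.4-fold), miR-2137 (7.41-fold), miR-3082-5p (7.39-fold), miR-714 (6.58-fold), miR-3077-5p (5.95-fold) and miR-1839-3p (5.24-fold). Each was also at least 2-fold higher on the unscaled signals.

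A mirtron, a miRNA cut from a short intron by splicing, gave one of the strongest signals among the miRNAs higher in OPCL61. This mirtron, miR-1224-5p, lies within Vwa5b2 and had 4190 units in NSCL61 and 10173 in OPCL61 (2.34 ± 0.010, 5.07-fold). It stood under all 5 other scalings. miR-2145, listed under an older database version, had 6892 and 13196 units (3.99-fold), and without scaling its difference was below 2-fold. Its probe of 14 bases maps to both chromosome 4 and chromosome 14 (mm9), and which RNA it read was not tested. Of 5 measured mirtrons, 3 were higher and none was lower, with a median of 1.08, where 34.8% of all measured miRNAs were higher. On unscaled signals 1 was higher and 1 lower, where 15.6% of all measured miRNAs were higher and 39.5% lower.

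A further 28 miRNAs were above background in OPCL61 alone, and all 28 counted as higher. This count follows from the scaling: the lowest scaled level among detected probes was 2.73 in NSCL61 and 3.83 in OPCL61, 1.10 apart, so a miRNA just detected in OPCL61 was already past 2-fold against the limit of NSCL61. The sizes are more telling than the count. miR-150-3p, the minor arm of the lymphocyte miRNA miR-150, had 379 units in OPCL61 and 1.59 in NSCL61, where it was not well above background, and its level was 43.9-fold higher or more. The main arm, miR-150-5p, was not measured in either line. miR-758-5p had 204 against 2.31 units (at least 23.7-fold), and miR-678 had 204 against 6.73 units (at least 23.6-fold). miR-681 had 110 against 6.30 units (at least 12.8-fold). miR-3099-3p, encoded within Usp29, had 98.5 against 10.9 (at least 11.4-fold). miR-138-1-3p, the minor arm of a brain-enriched hairpin, had 95.0 against 7.85 (at least 11-fold). The other arm product, miR-138-5p, did not share this. It had 48.6 units in NSCL61 and 16.4 in OPCL61, below background there, with a bound of −0.33, and was called lower without scaling. miR-146a-5p, induced by NF-κB and a repressor of Traf6 and Irak1, had 76.4 against 10.1 (at least 8.85-fold). miR-370-3p had 73.0 against 15.8 (at least 8.29-fold). Each of these 8 higher miRNAs stood under all scalings tried.

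On the side lower in OPCL61 there were 31 miRNAs. Signals of different probes are not comparable as amounts, but for orientation the median signal of the lower group was 392 units in NSCL61 and 60.3 in OPCL61, whereas the miRNAs higher in OPCL61 had medians of 27.6 and 76.4. The largest difference was that of miR-5097, with 3389 units in NSCL61 and 251 in OPCL61 (−2.70 ± 0.025, 6.49-fold lower). miR-1937b, listed under an older database version, gave 86304.5 units in NSCL61, against 10082 in OPCL61 (−2.04 ± 0.011, 4.11-fold lower). miR-720 had 14118 and 1792 units (−1.92 ± 0.011, 3.78-fold lower). The miR-1937 and miR-720 entries were later recognised as fragments of tRNA, so their signals are not those of a hairpin product.

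**Figure D3:**
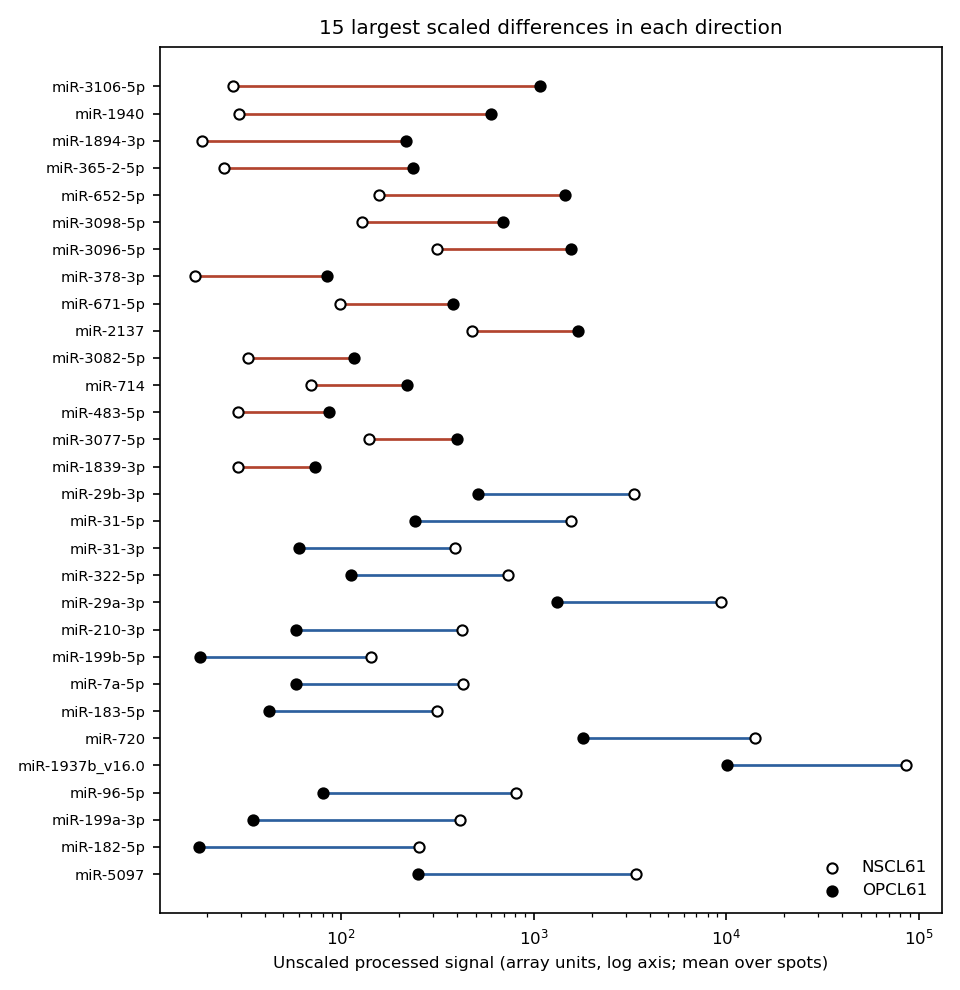
Unscaled processed signal (log axis, mean over spots) of the 15 miRNAs with the largest scaled difference in each direction among those measured in both lines. Open circles are NSCL61 and filled circles OPCL61, red lines are higher and blue lines lower in OPCL61. On these deposited signals all 30 keep their direction, and the lower group reaches from 143 to 86304.5 units in NSCL61.

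The miR-183/miR-96/miR-182 cluster, active in sensory neurons and known for repression of Foxo transcripts, had the lowest median of the lists other than marker lists. miR-182-5p had 254 units in NSCL61 and 18.3 in OPCL61 (−2.59 ± 0.052, 6.03-fold lower). miR-96-5p had 807 and 80.6 units (−2.26 ± 0.018, 4.80-fold lower). miR-183-5p had 315 and 41.9 units (−1.86 ± 0.042, 3.62-fold lower). The main arms of the 3 hairpins were thus all lower, and miR-183-3p, at 40.8 units in NSCL61 and below background in OPCL61, gave no bound of 2-fold. So 3 of 4 measured members were lower, where 12.1% of all measured miRNAs were, and their median was −2.06, against 0.10 over all 256. With normexp background correction, an alternative that compresses dim signals, miR-182-5p (−0.99) and miR-183-5p (−0.89) lay just short of 2-fold while miR-96-5p stayed past it.

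The miR-29 family, which represses collagen and other matrix transcripts, was also lower. miR-29a-3p had 9341 units in NSCL61 and 1314 in OPCL61 (−1.77 ± 0.020, 3.41-fold lower). miR-29b-3p had 3310 and 516 units (−1.62 ± 0.017, 3.07-fold lower), and miR-29c-3p 407 and 94.0 units (−1.05 ± 0.022, 2.08-fold lower). All 3 miRNAs with the miR-29 seed shown above were called lower, where 12.1% of all measured miRNAs were lower. This seed family was 1 of 3 in which every measured member was called. miR-29b-1-5p, an arm with another seed, was below background in OPCL61 and had a bound short of 2-fold. The list median was −1.34 scaled and −2.40 unscaled. With normexp miR-29c-3p (−0.62) lost its call and the a and b forms kept theirs.

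Both arms of miR-31, a miRNA encoded near the tumour suppressor locus Cdkn2a, differed by nearly the same amount. miR-31-5p had 1559 and 242 units (−1.63 ± 0.018) and miR-31-3p 392 and 60.3 units (−1.64 ± 0.032). The arms were 3.09-fold and 3.13-fold lower in OPCL61, and their differences lay 0.018 apart, within the spot error. With normexp this closeness was gone: miR-31-5p was at −1.44, and miR-31-3p at −0.92 was no longer called.

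The paralogous clusters of miR-23, miR-24 and miR-27 differed in their counts under the main scaling. On chromosome 13 the b cluster had 3 of 3 measured members lower, where 12.1% of all measured miRNAs were lower. miR-23b-3p had 476 and 88.5 units (−1.37 ± 0.025), and miR-27b-3p had 328 and 63.3 units (−1.33 ± 0.057). miR-24-3p, made from both clusters, had 2083 and 486 units (−1.06 ± 0.067). In the a cluster on chromosome 8, miR-23a-3p (2789 and 966 units, −0.47) and miR-27a-3p (2320 and 677 units, −0.72) stayed within 2-fold. There 1 of 3 measured members was lower, the shared miR-24-3p. The a and b forms have closely related sequences, and signal shared between their probes was not tested. Without scaling all 5 were lower, where 39.5% of all measured miRNAs were. With normexp miR-24-3p stayed past 2-fold, and miR-23b-3p (−0.88) and miR-27b-3p (−0.68) did not. The a forms were then at −0.51 (miR-23a-3p) and −0.72 (miR-27a-3p), so neither locus had a call of its own.

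Mesenchymal miRNAs formed a further group on this side. miR-199a-3p had 413 units in NSCL61 and 34.8 in OPCL61 (−2.52 ± 0.051, 5.75-fold lower). miR-199b-5p had 143 and 18.4 units (3.53-fold lower). miR-199a-5p had 134 units in NSCL61 and was below background in OPCL61 at 5.05, at least 3.47-fold lower, and miR-214-3p, from the same transcript, had 84.0 and −0.64 units, at least 2.18-fold lower. The chromosome 1 cluster of miR-199a and miR-214 was thus lower in 3 of 3 measured products, where 12.1% of all measured miRNAs were lower. Both miR-199a arms are also encoded on chromosome 9 within Dnm2, and the array does not tell which locus gave their signal. These 4 are also the detected part of the marker list for fibroblasts, pericytes and smooth muscle: 4 of its 9 arms were measured, its summed signal was 772 units in NSCL61 and 50.9 in OPCL61, and miR-143 and miR-145 were in neither line. The part of such cells in the result was not tested, and in these bulk samples fewer cells of a type and less RNA per cell cannot be told apart. With normexp miR-199a-3p stayed past 2-fold and the other 3 did not.

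Other known miRNAs were lower one by one. miR-205-5p, an epithelial miRNA, had 299 units in NSCL61 and 1.71 in OPCL61, where it was not well above background, and was at least 7.75-fold lower. It was the 1 measured miRNA of the 14 in the epithelial list. No arm of miR-200a, miR-200b, miR-200c, miR-141, miR-429 or miR-203 was above background in either line. miR-7a-5p, a repressor of the EGF receptor in human glioma cells, had 431 and 58.1 units (−1.83 ± 0.032, 3.57-fold lower). miR-210-3p, induced by hypoxia, had 426 and 58.5 units (−1.81 ± 0.024, 3.50-fold lower). miR-322-5p, of the X-linked cluster with miR-503, had 735 and 113 units (−1.65 ± 0.026, 3.13-fold lower). miR-221-3p, which targets p27, an inhibitor of cyclin-dependent kinases, had 977 and 227 units (−1.04 ± 0.017), while miR-222-3p from the same cluster and with the same seed had 203 and 95.0 units (−0.04 ± 0.025). With normexp miR-221-3p (−0.88) lost its call, and miR-205-5p, miR-7a-5p, miR-210-3p and miR-322-5p kept theirs.

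miR-9-5p, the progenitor miRNA, was above background in NSCL61 alone. It had 111 units there and 8.95 in OPCL61, at least 2.87-fold lower. Among the other neural and neuronal miRNAs, miR-212-3p had 148 and 30.1 units (−1.25 ± 0.044). With normexp neither miR-9-5p (−0.19) nor miR-212-3p (−0.26) was called. In all 3 of 8 measured list members were lower and 1, miR-134-5p, was higher, with a median of −0.38, where 12.1% of all measured miRNAs were lower. Without scaling 6 of the 8 were lower (median −1.44), where 39.5% of all were. miR-124 and miR-137 were in neither line. In the oligodendrocyte list 2 of 7 measured members were lower (miR-23b-3p, and miR-17-3p by 2.02-fold) and 1, miR-138-1-3p, was higher. Of all measured miRNAs 12.1% were lower and 34.8% higher. Without scaling 5 of the 7 were lower (median −1.39), where 39.5% of all were. miR-338-3p was above background in NSCL61 alone, at 48.5 units against 4.06, with a bound short of 2-fold, and miR-219, the defining miRNA of oligodendrocyte differentiation, was in neither line.

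On the other side, the miR-181 family was higher as a set under the main scaling. miR-181a-5p had 83.4 units in NSCL61 and 148 in OPCL61 (1.89 ± 0.030, 3.71-fold higher). miR-181b-5p had 99.7 and 152 units (1.67 ± 0.028), and miR-181d-5p 26.7 and 44.3 units (1.81 ± 0.080). miR-181c-5p was above background in OPCL61 alone, at least 2.44-fold higher. All 4 members with the seed below were called, 4 of 5 measured arms, where 34.8% of all measured miRNAs were higher, and the list median was 1.67. The unscaled signals of the 3 members measured in both lines were also higher in OPCL61, each by less than 2-fold, and no member was called without scaling. With normexp miR-181c-5p (0.93) lost its call and the others kept theirs. The genes of miR-181a lie at chr1:137966468-137966490 and chr2:38852741-38852763, those of miR-181b at chr1:137966650-137966673 and chr2:38853845-38853868, all on the plus strand, and miR-181d at chr8:84178759-84178781 on the minus strand.
miR-181a-5p: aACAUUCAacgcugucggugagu
miR-181b-5p: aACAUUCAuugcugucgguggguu
miR-181d-5p: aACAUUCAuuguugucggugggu

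The imprinted Dlk1-Dio3 cluster on chromosome 12, a long array of maternally expressed miRNAs, was mostly below background: 6 of its 91 miRNA arms on the array were measured. The list was drawn up by name, and its 6 measured arms were each higher in OPCL61, with a median of 2.26 scaled and 1.20 unscaled, where 34.8% of all measured miRNAs were higher (15.6% unscaled). miR-3072-5p, which is not on the list but maps into the same cluster, was not called (134 and 124 units, 0.95 scaled and −0.11 unscaled). Besides miR-758-5p and miR-370-3p, miR-134-5p had 19.1 and 51.7 units (2.39 ± 0.074), and miR-487b-3p had 55.6 and 116 units (2.13 ± 0.041). These 4 were also higher without scaling. miR-494-3p had 543 and 769 units (1.56 ± 0.014) and miR-770-3p was at least 2.71-fold higher. Under the other scalings between 4 and 6 of the 6 were higher and none was lower. With normexp miR-770-3p (0.97) lost its call and the others on the list kept theirs. Being measured in OPCL61 was enough for a call in 3 of the 6, which were below background in NSCL61.

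The group of miR-130 and miR-301 had 3 of 6 measured members higher, against 34.8% of all measured miRNAs. miR-130b-3p had 34.5 and 65.6 units (1.99 ± 0.048), and miR-301b-3p, which neighbours it, was at least 3.75-fold higher. miR-301a-3p, at 136 and 132 units (1.02 ± 0.034), owed its direction to the scaling: without it the difference was −0.04. Without scaling none of the 6 was higher and 1 was lower, where 15.6% of all measured miRNAs were higher and 39.5% lower. In the p53-responsive list 3 of 4 measured members were higher, where 34.8% of all measured miRNAs were. miR-34a-5p had 46.0 units in OPCL61 and 4.27 in NSCL61, where it was below background, at least 5.31-fold higher. It shares its seed with miR-34b-5p (23.5 and 31.2 units, 1.46 ± 0.066). miR-107-3p had a difference of −0.15. Without scaling miR-34a-5p was higher, miR-107-3p lower and the others were not called, and with quantile normalization none of the 4 was called. With normexp miR-34a-5p alone of the 4 was called, with miR-34b-5p at 0.99. miR-301a-3p (0.89) also lost its call with normexp.

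**Figure D4:**
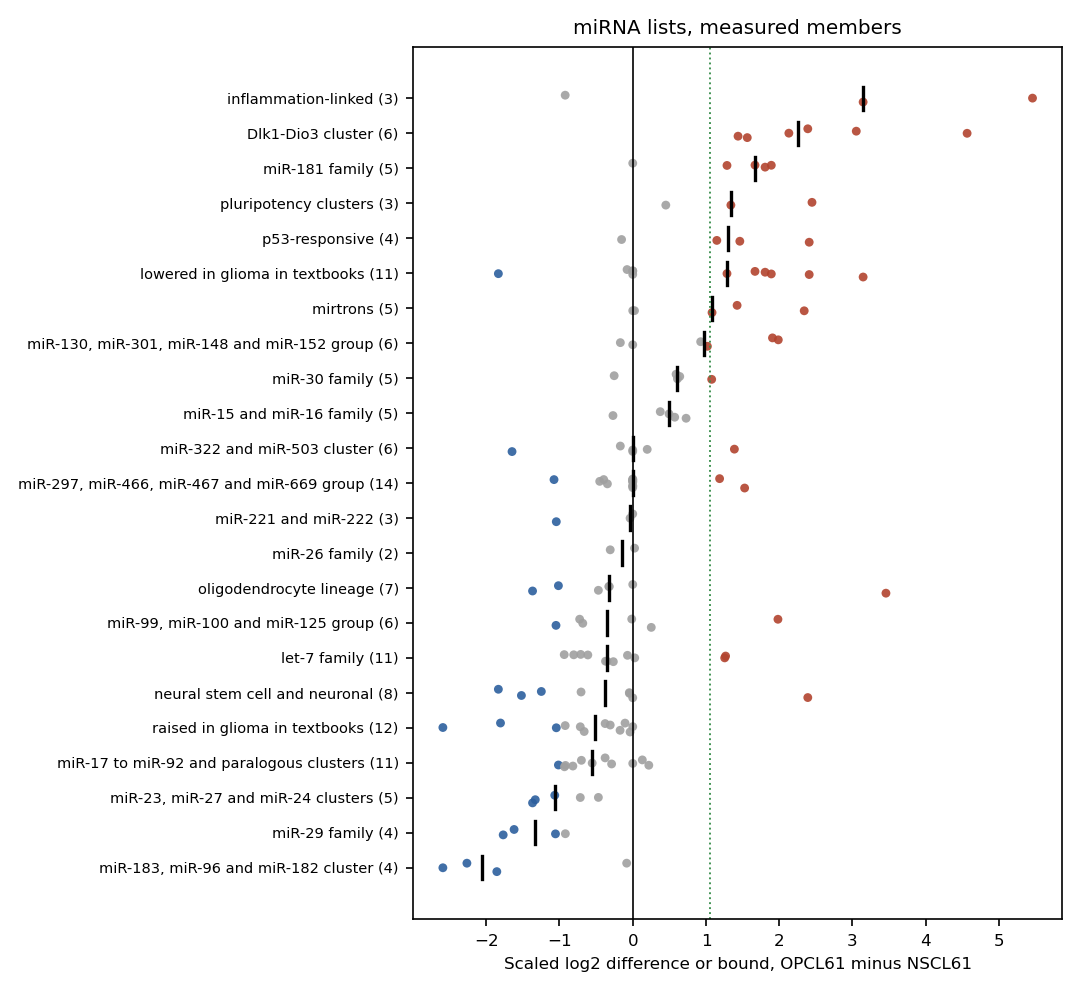
Scaled log2 difference (or bound, where 1 line was below background) of the measured members of each miRNA list with at least 2 of them, with their number in brackets. Red points are called higher and blue lower in OPCL61, grey ones neither, and black bars are list medians. The green dotted line at 1.06 is where unscaled signals are equal. A point at 0 is a miRNA of NSCL61 alone with no bound.

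Several families with strong signal in both lines were close after the main scaling. miR-21-5p, among the 10 miRNAs with most signal in each line, had 46527 and 14090.0 units (−0.66 ± 0.019). let-7 is a repressor of Ras, Hmga2 and Lin28 transcripts. Of its 11 measured arms none was lower and 2 minor arms were higher, let-7b-3p and let-7f-1-3p, each with signals of 16.8 to 22.8 units. The 9 arms with the let-7 seed ran from −0.94 to 0.03, and let-7a-5p had 3766 and 1103 units (−0.71 ± 0.017). In the proliferation-linked miR-17 to miR-92 clusters 1 of 11 measured arms, miR-17-3p, was lower, with a median of −0.55. Without scaling 9 of 11 let-7 arms and 8 of 11 arms of these clusters were lower, with none higher, where 39.5% of all measured miRNAs were lower. With median scaling 6 and 8 were lower (71 of all 256 measured), and with quantile normalization 3 and 4 (49 of 256). The 75th percentile of all probes gave 9 and 9 (104 of 256), and that of probes measured in both lines 2 and 4 (41 of 256). For both families the statement that they differed little holds for the main scaling alone.

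The lists of miRNAs that textbooks call raised or lowered in glioma, whose members overlap with the groups above, are given by their counts. Of 12 measured miRNAs of the raised list, 3 were lower in OPCL61 (miR-182-5p, miR-210-3p and miR-221-3p) and none was higher, with a median of −0.52, where 12.1% of all measured miRNAs were lower. Without scaling 11 of the 12 were lower, and 8 with median scaling, where 71 of all 256 measured miRNAs were lower. Unscaled counts here and in the rest of this paragraph are to be read against 39.5% of all lower and 15.6% higher. With normexp miR-210-3p stayed past 2-fold, and miR-182-5p (−0.99) and miR-221-3p (−0.88) did not. Of 11 in the lowered list, 6 were higher (4 of them miR-181 members, with miR-146a-5p and miR-34a-5p) and 1, miR-7a-5p, was lower, with a median of 1.29, where 34.8% of all were higher. miR-146a-5p, miR-34a-5p and miR-181c-5p were above background in OPCL61 alone, which was enough for a call, and the median is the bound of miR-181c-5p, so this count and median support no lean. Without scaling the lowered list had 2 higher and 2 lower. In the miR-30 family 1 of 5 was higher, miR-30a-5p (251 and 254 units, 1.08), again at equal unscaled signal. The miR-15 and miR-16 family had no call among 5. The group of miR-125 with miR-99 and miR-100 had 1 of 6 higher (miR-125a-3p) and 1 lower (miR-99b-5p), and the repeat-rich group of miR-466, miR-467, miR-669 and miR-297 had 2 of 14 higher and 1 lower. Without scaling these groups had 4 of 6 and 4 of 14 lower and none higher. Of the pluripotency clusters, 2 of 3 measured arms were higher, against 34.8% of all measured miRNAs. miR-295-5p was at least 5.45-fold higher, and the probe used for miR-290-3p was itself not above background in NSCL61, so no fold is given for it. Without scaling 1 of the 3 was higher, and with quantile normalization none was. miR-211-3p, the 1 measured arm of the miR-204 and miR-211 pair, had 513 and 989 units (4.02-fold higher), which is below 2-fold without scaling. Among Hox-linked miRNAs miR-10b-5p alone was measured (188 and 84.0 units, −0.11), and the miR-26 family had no call among 2. Without scaling miR-10b-5p, both miR-26 members and 1 of the 5 members of the miR-15 and miR-16 family were lower.

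Markers of further cell types were sparse in both lines. In the blood and microglia list 2 of 10 miRNAs, miR-150-3p and miR-146a-5p, were above background in OPCL61, and 1, miR-155-5p, was so in NSCL61 (74.0 units against 15.4). The summed signal of that list was 96.2 units in NSCL61 and 480 in OPCL61, with the defining miR-142 and miR-223 in neither. The part of blood cells in the miR-150-3p and miR-146a-5p results was not tested. Of 14 neuronal markers 4 were detected in NSCL61 and 1 in OPCL61, with sums of 276 and 79.7 units. The endothelial miR-126-3p had 25.9 units in NSCL61 and 5.25 in OPCL61, below background in the latter. No muscle or hepatocyte marker was measured in either line.

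The miRNAs higher and lower in OPCL61 differed in what they are made of. The higher ones with a sequence (68) had a median of 60.0% G and C and 40.0% G, as the first set of sequences above shows, the lower ones (24) 47.7% and 22.7%, and those not called (103) 45.5% and 26.3%. Split by composition, miRNAs measured in both lines with at most 45% G and C numbered 42, of which 5 were higher and 10 lower, with a median of −0.28. Of 42 between 45% and 55%, 12 were higher and 8 lower, with a median of 0.01. Of 50 above 55%, 27 were higher and 2 lower, and their median was 1.16. Unscaled medians in the same order were −1.34, −1.05 and 0.10. Over these 134 miRNAs Spearman's rho between G and C content and difference was 0.48 and Pearson's r 0.47, as a description of 1 pair of arrays. Base composition therefore moved with the direction of the differences, and its part in them was not tested.

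**Figure D5:**
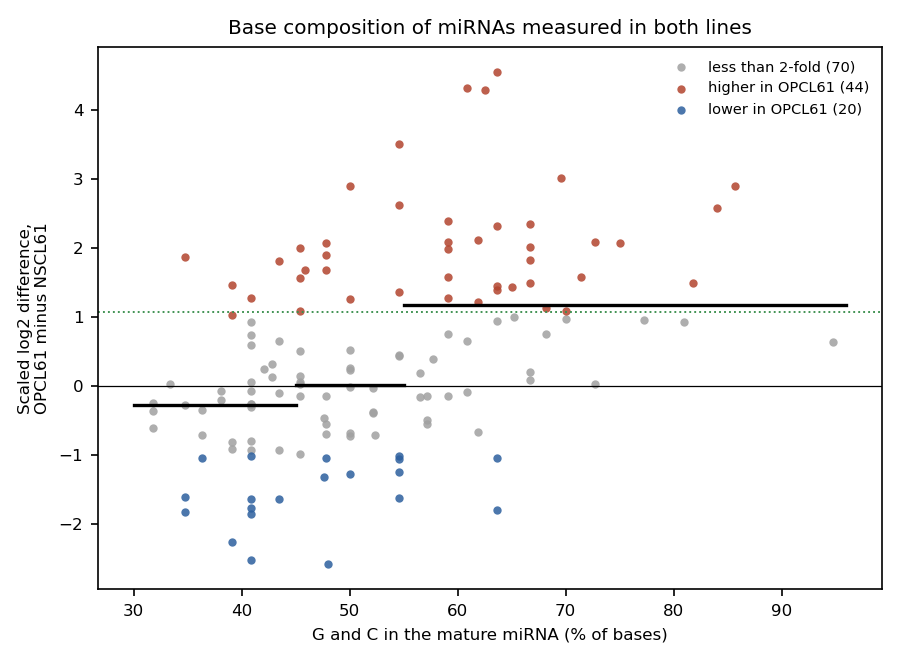
G and C content of the mature miRNA against the scaled log2 difference for the 134 miRNAs measured in both lines that have a RefSeq sequence. Black bars are the medians of 3 composition ranges (−0.28, 0.01 and 1.16), the green dotted line marks equal unscaled signal. Above 55% G and C, 27 of 50 points are red (higher in OPCL61) and 2 are blue.

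Late-annotated miRNAs, which among those measured run from miR-1839 to miR-5097 in number, showed the same lean. Of 47 measured, 31 were higher and 2 lower (miR-5097 and miR-1937b), with a median of 1.35, against 34.8% higher over all measured miRNAs. On unscaled signals 16 were higher and 6 lower, where 15.6% of all measured miRNAs were higher and 39.5% lower. Late-annotated miRNAs made up 47 of the 256 measured, 31 of the 89 higher calls and 12 of the 30 that stood under every scaling.

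Probes, arms and gene neighbours were compared next. Of the 61 higher miRNAs measured in both lines, 41 had at least 2 probes above background in both, and in 41 of these all probes had the same sign, in 39 all past 2-fold. Of the lower ones the numbers were 18, 18 and 16. Arms were paired by name, so arms with a locus number, such as miR-365-2-5p and miR-138-1-3p, were left unpaired. Of 26 hairpins so paired with both arms measured, 4 had both arms called in the same direction. In 15 of them 1 arm was called, and none had arms called in opposite directions. In 9 of the 26 the arms lay more than 2-fold apart in their differences, with levels below background entering at or near the floor. For miR-17, miR-183, miR-467a, miR-674 and miR-1839 an arm was below background in OPCL61, so the size of their gap was not measured. Among these 26 the largest gap after miR-652 was that of miR-125a, with 1221 and 354 units for the 5p arm (−0.72 ± 0.020) and 88.9 and 168 for the 3p arm (1.98 ± 0.035). Of 19 seed families with at least 2 measured members, 11 held a call and none held calls in both directions. Counts over arms, seed families and clusters are to be read against 46.9% of all measured miRNAs called, 34.8% higher and 12.1% lower. Whether miRNAs with a shared seed went together more than that was not tested. Of 19 clusters with at least 3 measured members, 3 held calls in both directions. On chromosome 17 miR-99b-5p was lower (385 and 89.3 units, −1.05) while miR-125a-3p from the same cluster was higher. On chromosome 3 miR-9-5p was lower while both miR-3093 arms, above background in OPCL61 alone, were higher. In the miR-322 cluster miR-542-5p, in OPCL61 alone, was at least 2.62-fold higher while miR-322-5p was lower. With normexp miR-99b-5p (−0.61), miR-9-5p (−0.19) and miR-542-5p (0.97) were not called, so none of these 3 clusters then held calls in both directions.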

How the data were processed

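Total RNA of each line was hybridised with Cy3 to an Agilent mouse miRNA array annotated on mm9, and Agilent Feature Extraction 10.7.3.1 was used, per the submitters' processing notes. Per the file headers, the deposited intensity (processed signal) had the background subtracted and was detrended, without normalization between arrays, and the deposited whole-series table held the same intensity values (largest difference 0). Other columns, per the file headers, were flags for outlier, saturated and well-above-background spots.

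Outlier spots were left out (1927 in NSCL61 and 2365 in OPCL61). Values below the array's lowest spot signal well above background (17.3 and 18.2 units) were set to it before log2, spots were averaged, and each array was scaled by the 75th percentile of 182 probes. A miRNA took the level of its brightest probe over the 4 arrays. Called were differences of at least 2-fold and over 2 times the spot SE. For a miRNA below background in 1 line, the bound set the higher level against the larger of the lowest detected level and the probe's own. "Measured" means in at least 1 line. A list median takes bounds for miRNAs of 1 line, with 0 where no fold could be given.

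Members, 26 lists and 8 marker lists were chosen with earlier results of these data known. Named miRNAs were the 15 largest differences and 8 largest bounds in each direction, the 10 brightest of each line, of each list the 2 brightest and the 2 largest differences, arms called in opposite directions and seed relatives of the first group. Others were named after their values were seen, to complete an arm pair, cluster or list: miR-24-3p, miR-29b-1-5p, miR-138-5p, miR-150-5p, miR-155-5p, miR-181c-5p, miR-183-3p, miR-338-3p, miR-365-3p, miR-487b-3p, miR-652-3p and miR-770-3p. Clusters join miRNAs within 10 kb by the files' mappings. The calling step was run on simulated data with known differences and spot error alone. That check cannot bear on the scaling or on the spread between cultures. Python 3.11.15, numpy 2.4.6, pandas 2.3.3 and, for the normexp step, limma 3.58.1 in R 4.3.3 were used. The number of arrays limits the precision.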

Additional observations from a re-analysis of the deposited data

Results flagged for a closer look

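Probes for viral miRNAs, which no comparison used, gave signal above background in both lines. Of 57 viral miRNAs on the array, 6 were well above background in NSCL61 and 8 in OPCL61 by the same rule as for mouse miRNAs. The brightest such probe gave 134 units in NSCL61 and 96.5 in OPCL61. Negative control spots were well above background in 5 and 4 of 1000 cases. Of the 89 mouse miRNAs called higher in OPCL61, 69 had under 100 units in NSCL61.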

How the results depend on the processing

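The counts followed the scaling. Against 89 higher and 31 lower, there were 40 and 101 without scaling, 32 and 104 with the 75th percentile of all probes, 52 and 71 with the median and 42 and 49 with quantile normalization. Without a filter on dim probes 861 were higher, because miRNAs at the floor on both arrays then received the shift. At 4-fold 41 were higher and 6 lower, and at 1.5-fold 53 were lower. With normexp 66 were higher, all of them among the 89, and 14 were lower, 13 of them among the 31. With the total signal per miRNA 55 were lower. The cause of the latter changes was not tested. The median difference, 0.38, was −0.68 without scaling, −0.75 with all probes, 0.11 with probes measured in both lines, −0.35 with the median, −0.17 with quantile normalization, 0.54 with normexp, 0.53 with the mean of all probes, 0.14 when every spot had to be above background and 0.12 with the total signal. Among named miRNAs, miR-301a-3p changed sign without scaling (−0.041) and with all probes (−0.11), miR-30a-5p with all probes (−0.053) and miR-17-3p with normexp (0.086). No paired analysis was possible because each line had 1 array, and for the same reason no replicate could be left out. Signals near 17.3 and 18.2 units set the limit of detection, and 69 of the 89 miRNAs higher in OPCL61 had under 100 units in NSCL61.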

Other observations

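Control features that the array design names hur and mr, whose targets the files do not state, did not share 1 ratio between the lines. Their median unscaled signals in NSCL61 over OPCL61 were 6.13-fold for hur_1, 3.43-fold for hur_2, 1.19-fold for hur_4, 13.2-fold for hur_6 and 0.887-fold for mr_1, each from 40 spots per array. The scaling shift corresponds to a log2 ratio of 1.06, so hur_1, hur_2 and hur_6 stayed lower in OPCL61 after scaling, by −1.55, −0.72 and −2.66, while hur_4 (0.80) and mr_1 (1.23) were higher.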
